A study of Homo sapiens with 6 samples.

Results

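The genes described here are the IL-6 family cytokines IL6, LIF, IL11 and CLCF1, the receptor chains IL6R, IL6ST, LIFR and OSMR, the transcription factor STAT3 and the feedback inhibitor SOCS3. They were chosen by gene name, which gave 10 of the 57819 genes in the deposited table. All 10 passed the filter on low values (a mean of at least 10 normalized reads), as did 19048 genes in all. The samples were 6 polyA RNA libraries from IMR90 ER:Ras cells. IMR90, a human lung fibroblast line, here carries ER:Ras, a Ras oncogene joined to an estrogen receptor domain, which 4-hydroxytamoxifen (4OHT) switches on to drive the cells into senescence. Every library, controls included, came from cells given 200 nM 4OHT for 3 days. The control group received a scrambled siRNA (siSCR, 3 libraries), and the knockdown group an siRNA that targets sin-lncRNA, a long noncoding RNA (3 libraries). Proliferating cells without 4OHT are not analysed here, so the values compare 4OHT-treated cells with 4OHT-treated cells. Whether either group had become senescent was not assessed here. The labels number the replicates but do not say whether they came from separate cultures, and p-values then measure only the spread between these libraries.

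Cytokines of the IL-6 family signal through receptor complexes that share the chain IL6ST, also called gp130. IL-6 and IL-11 first bind a private receptor (IL6R or IL11RA) that then pairs with IL6ST, LIF signals through LIFR with IL6ST, and oncostatin M through OSMR or LIFR with IL6ST. CLCF1 acts through CNTFR, LIFR and IL6ST. Janus kinases bound to these chains phosphorylate STAT3, which enters the nucleus and induces, among others, SOCS3, and SOCS3 blocks the kinases in turn. In senescent fibroblasts IL-6 is known as a secreted factor of the inflammatory secretory phenotype.

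The upstream sequences of 4 members are shown because they were the members with a match to any of the motifs searched, among the 8 of 10 members in a RefSeq promoter table (build GRCh38.p14, which is not the hg19 build of the deposited coordinates). Each is the 250 bases before an annotated start, with matches on either strand in capitals.
IL6, chr7:22726950-22727199, plus strand: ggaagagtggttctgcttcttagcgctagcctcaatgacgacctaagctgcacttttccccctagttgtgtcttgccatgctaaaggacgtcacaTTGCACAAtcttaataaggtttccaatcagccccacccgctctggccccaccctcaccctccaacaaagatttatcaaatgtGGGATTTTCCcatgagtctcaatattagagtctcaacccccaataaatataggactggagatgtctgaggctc
IL11, chr19:55370464-55370713, minus strand: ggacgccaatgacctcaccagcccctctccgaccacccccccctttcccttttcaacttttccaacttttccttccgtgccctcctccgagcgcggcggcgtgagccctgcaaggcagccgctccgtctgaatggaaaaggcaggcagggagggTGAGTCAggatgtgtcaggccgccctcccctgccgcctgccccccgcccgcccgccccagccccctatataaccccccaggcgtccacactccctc
OSMR, chr5:38845762-38846011, plus strand: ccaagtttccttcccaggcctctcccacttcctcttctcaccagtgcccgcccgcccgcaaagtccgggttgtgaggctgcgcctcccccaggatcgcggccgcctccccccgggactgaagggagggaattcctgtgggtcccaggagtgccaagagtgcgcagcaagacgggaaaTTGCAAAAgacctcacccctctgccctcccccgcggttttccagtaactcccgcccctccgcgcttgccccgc
LIFR, chr5:38595406-38595655, minus strand: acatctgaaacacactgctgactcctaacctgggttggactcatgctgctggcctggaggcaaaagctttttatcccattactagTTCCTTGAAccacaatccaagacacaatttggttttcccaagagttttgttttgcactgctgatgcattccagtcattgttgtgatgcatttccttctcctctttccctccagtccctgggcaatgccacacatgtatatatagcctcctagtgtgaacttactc
The capitals in IL6 are a C/EBP match (TTGCNNAA, in 9.05% of all 35116 promoters over the same length) and an NF-kB match (the kappa-B consensus with any base in the middle, 0.527%), 155 and 73 bases before the start. Those in IL11 are an AP-1 match (TGACTCA, 4.20%), and those in OSMR a C/EBP match. Those in LIFR are a STAT match (TTCNNNGAA, 6.57%), in 1 of the 3 LIFR starts in the table; another LIFR start, not shown, held STAT, C/EBP and TATA box matches. The other motifs searched were TTCCNGGAA, which is contained in the STAT motif and stood in 0.968% of promoters, TGACGTCA (1.65%) and TATAAA (10.7%). These matches are letters in a window and do not show binding, and the start used in these cells is not known.

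Reads in genes ran from 30271192 to 50913672 in controls and from 22117324 to 27882280 in knockdowns, so every knockdown library was shallower. A count of 0 allows 3 reads, or 0.0596 to 0.134 RPM (recovered reads scaled to library size, on the CPM scale) depending on the library. Such limits and the intervals below cover counting error only, because reads without molecular identifiers may be PCR copies. The targeted lncRNA, listed as RP4-530I15.6, stood at 3.70, 4.73 and 4.09 RPM in controls 1, 2 and 3 and at 0.493, 0.640 and 0.534 in knockdowns 1, 2 and 3. All 7 fibroblast markers were detected, with a summed level of 15162 to 16342 RPM in controls and 10645 to 11072 in knockdowns. At a limma adjusted p under 0.05, 5 of them fell and 2 rose, beside 41.0% of all genes tested that changed. Among protein-coding genes with a mean of at least 50 normalized reads that share was 51.6%. All 6 leukocyte markers, PTPRC and CD14 among them, were under 1 RPM in every library, with a sum of 0.200 to 0.298 RPM in controls and 0.269 to 0.641 in knockdowns. Of 5 epithelial markers KRT8 alone exceeded 1 RPM and KRT5 was at 0. Their sum was 7.26 to 8.08 RPM in controls and 5.6 to 6.40 in knockdowns. KRT8 fell (log2 fold change -0.38, limma adjusted p = 0.0095). For the 3 endothelial markers measured the sum was 6.93 to 7.87 and 7.80 to 8.71 RPM, with CDH5 at or near 0. VWF rose (log2 fold change 0.42, limma adjusted p = 0.034). The part of these marker genes in the results below was not tested. In RNA from whole cultures, fewer cells expressing a gene and less RNA per cell cannot be told apart.

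Depletion of sin-lncRNA was accompanied by lower cytokine transcripts and higher receptor transcripts. Of the 4 ligands 3 fell (LIF, IL11 and CLCF1) and IL6 did not pass the test, while all 4 receptor chains, STAT3 and SOCS3 rose. LIFR, the smallest of these rises, lost its call in 5 of 18 other fits. In all, 9 of 10 members changed (limma, Benjamini-Hochberg adjusted p under 0.05 over all genes), 6 upward and 3 downward. Over all genes tested, 41.0% changed by that rule, 17.5% upward and 23.5% downward, and the share was 51.6% among protein-coding genes with a mean of at least 50 normalized reads. For the same 9 members the 2 groups did not overlap, 6 upward and 3 downward, which held for 51.1% of all genes (22.8% upward and 28.3% downward). The median log2 fold change was -0.41 over the 4 ligands and 0.43 over the 4 receptors, beside -0.04 over all genes tested. The changes were modest: the largest, in IL6R, was 1.82-fold, and 4.84% of genes had an absolute log2 fold change at least as large. For LIFR, the smallest among the members, that share was 58.9%.

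**Figure D1:**
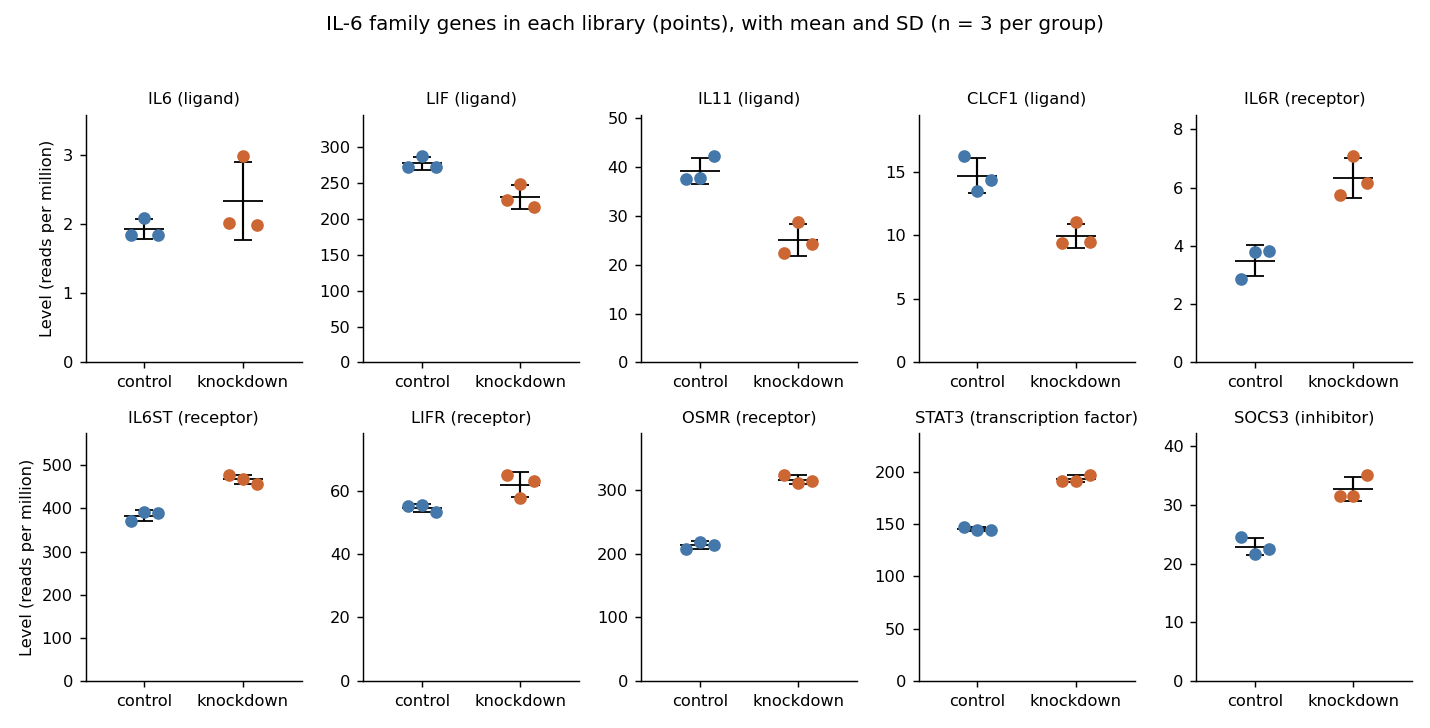
Level of each gene in RPM (linear axes from 0) in the 3 control and 3 knockdown libraries; points are libraries, bars the mean and SD. The groups separate for 9 of 10 genes, and for IL6 knockdown replicate 2 stands above 5 libraries that lie close together.

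LIF, a cytokine named for inhibiting leukemia cells and known for keeping stem cells undifferentiated, was by far the most abundant ligand. Its gene (ENSG00000128342.4, chromosome 22, 30636436 to 30642840 in hg19, protein-coding) gave 273, 288 and 273 RPM in controls and 227, 248 and 217 in knockdowns. Even the lowest control stood above the highest knockdown. Its change of -0.27 on the log2 scale (SE 0.05; limma adjusted p = 0.0021) left 83.0% of the control mean. These values rest on 5056 to 13723 reads per library, so counting error is small beside the spread between libraries.

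IL11, a cytokine tied to fibroblast activation and fibrosis, had the largest fall among the members. The gene (ENSG00000095752.2, chromosome 19, 55875757 to 55881831) gave 37.6, 37.8 and 42.3 RPM in controls and 22.4, 28.8 and 24.2 in knockdowns. No libraries of the 2 groups overlapped, and the mean went from 39.2 ± 2.64 to 25.1 ± 3.30 RPM (SD, n = 3). On the log2 scale IL11 changed by -0.65 (SE 0.09; limma adjusted p = 0.00020), which left 64.0% of control. No gene in the table overlaps IL11, so its reads are not shared with a listed neighbour.

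CLCF1, cardiotrophin-like cytokine factor, is a ligand of the CNTFR complex. Its gene (ENSG00000175505.9, chromosome 11, 67131639 to 67141648) gave 16.2, 13.5 and 14.3 RPM in controls and 9.41, 11.1 and 9.44 in knockdowns. Again no knockdown library reached the lowest control. CLCF1 thus stood at 67.9% of control (log2 fold change -0.56, SE 0.09; limma adjusted p = 0.00082). Its high-affinity chain CNTFR was nearly absent, at 0.0177 ± 0.0168 RPM in controls and 0 in all knockdowns (SD, n = 3), below the level that a count of 0 allows.

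IL6, the cytokine that names the family, was expressed at a low level and did not pass the test. The gene (ENSG00000136244.7, chromosome 7, 22765503 to 22771621) gave 1.85, 2.10 and 1.85 RPM in controls and 2.02, 2.99 and 1.99 in knockdowns, on 45 to 93 reads per library. Knockdown replicate 2 was highest at 70 reads (exact 95% Poisson interval 2.33 to 3.78 RPM), while the other 5 libraries lay between 1.85 and 2.10 RPM. Its interval overlapped those of all other libraries except control replicate 3 (1.49 to 2.26 RPM). The log2 fold change was 0.25 (SE 0.18; limma adjusted p = 0.29), with a 95% interval from -0.14 to 0.65. In fold the interval ran from 0.905 to 1.56. Without knockdown replicate 2 the log2 fold change of IL6 was 0.06 (limma adjusted p = 0.80). With the libraries thinned to the same total of reads, in a single random draw, the log2 fold change of IL6 was 0.10 (SE 0.19).

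Among the receptors the largest rise was that of IL6R, the IL-6 binding chain, and the smallest p was that of OSMR. IL6R (ENSG00000160712.8, chromosome 1, 154377669 to 154441926) gave 2.88, 3.80 and 3.81 RPM in controls and 5.74, 7.09 and 6.16 in knockdowns. Every knockdown library exceeded every control, on 98 to 192 reads per library. This was a 1.82-fold rise with a 95% interval of 1.48 to 2.24 (log2 fold change 0.86, SE 0.14; limma adjusted p = 0.00053). A pseudogene on the opposite strand within IL6R, RP11-350G8.7, gave 19.5 to 26.0 RPM and a log2 fold change of -0.06 (SE 0.11, limma adjusted p = 0.67).

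OSMR, the oncostatin M receptor chain, gave 207, 219 and 214 RPM in controls and 324, 311 and 314 in knockdowns (ENSG00000145623.8, chromosome 5, 38845960 to 38945698). The gap between the groups was many times the spread within them. Its log2 fold change was 0.57 (SE 0.04; limma adjusted p = 2.3e-06), a 1.48-fold rise. RICTOR, a subunit of the mTORC2 kinase complex that overlaps OSMR on the opposite strand, rose by 0.29 on the log2 scale (SE 0.06; limma adjusted p = 0.0028) at about 35.5 to 47.8 RPM. The strand setting of the counting is not given in the sources used here, so reads from overlapping genes cannot be told apart.

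IL6ST, the shared signalling chain, was the most abundant receptor at 370, 392 and 389 RPM in controls and 479, 468 and 457 in knockdowns (ENSG00000134352.15, chromosome 5, 55230923 to 55290821). The highest control lay well under the lowest knockdown. IL6ST rose 1.22-fold (log2 fold change 0.29, SE 0.04; limma adjusted p = 0.00027). CTD-2031P19.4, a pseudogene on the opposite strand inside IL6ST, moved the other way, by -0.31 on the log2 scale (SE 0.05; limma adjusted p = 0.00038) at 96.5 to 124.9 RPM.

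LIFR, the LIF receptor chain, gave 55.1, 55.4 and 53.2 RPM in controls and 65.0, 57.6 and 62.9 in knockdowns (ENSG00000113594.5, chromosome 5, 38475065 to 38608456). Knockdown replicate 2 stood only slightly above the highest control. The log2 fold change was 0.18 (SE 0.06; limma adjusted p = 0.024). The call for LIFR was lost without control replicate 3 (limma adjusted p = 0.0996), without knockdown replicate 1 (0.0801) and without knockdown replicate 3 (0.0848), and with all libraries under an untrended variance model (0.077). Relative to LIFR, OSMR was higher in every knockdown library: the log2 ratio of OSMR to LIFR reads was 1.91, 1.98 and 2.01 in controls and 2.32, 2.43 and 2.32 in knockdowns. This ratio was chosen after the values were seen and was not tested.

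STAT3, the transcription factor at the end of the receptor pathway, had the tightest values of the members. The gene (ENSG00000168610.10, chromosome 17, 40465342 to 40540586) gave 147, 144 and 144 RPM in controls and 191, 191 and 197 in knockdowns. Its mean went from 145 ± 1.94 to 193 ± 3.47 RPM (SD, n = 3), and no libraries of the 2 groups overlapped. STAT3 rose 1.33-fold (log2 fold change 0.41, SE 0.04; limma adjusted p = 1.7e-05). These are transcript levels, and phosphorylation of STAT3 was not measured.

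SOCS3, which binds IL6ST and the Janus kinases and limits their signalling, gave 24.6, 21.7 and 22.5 RPM in controls and 31.5, 31.5 and 35.2 in knockdowns (ENSG00000184557.3, chromosome 17, 76352864 to 76356158). All knockdown libraries were above all controls. SOCS3 rose 1.43-fold (log2 fold change 0.51, SE 0.07; limma adjusted p = 0.00018). The log2 ratio of SOCS3 to STAT3 reads overlapped between the groups, at -2.58, -2.73 and -2.68 in controls and -2.60, -2.60 and -2.48 in knockdowns. No gene in the table overlaps STAT3 or SOCS3.

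**Figure D2:**
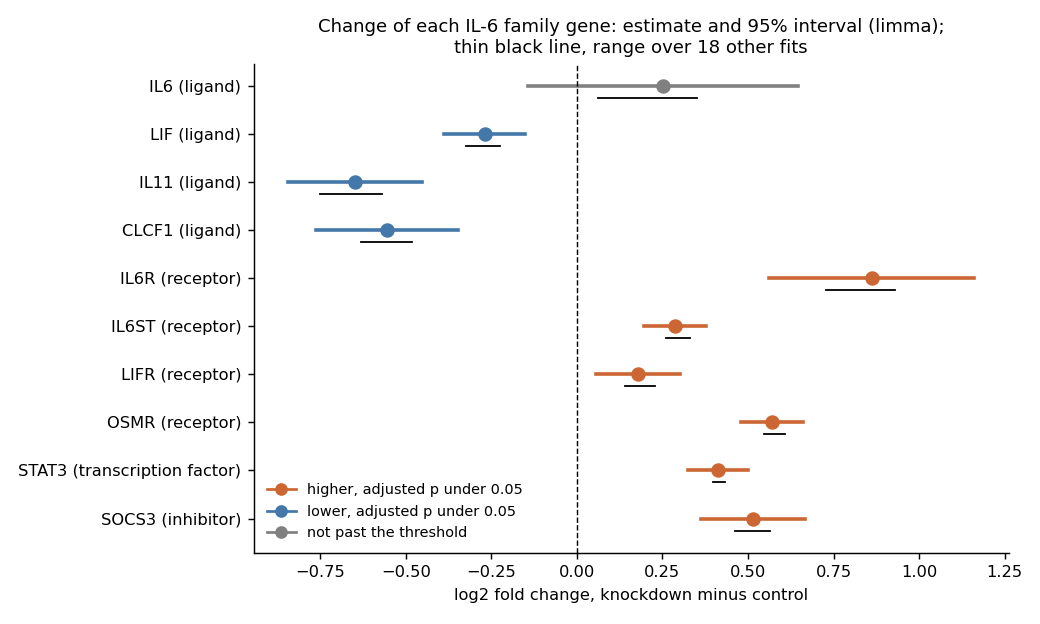
log2 fold change of each gene, knockdown minus control; points are limma estimates, coloured lines 95% intervals and thin black lines the range over 18 other fits. LIF, IL11 and CLCF1 lie left of 0 and the receptors, STAT3 and SOCS3 right of it; the interval of IL6 runs from -0.14 to 0.65.

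Levels of different genes were compared after division by exon length (GENCODE 29, union of exons), in RPM per kb; the annotation release behind the deposited counts is not known, so these lengths are approximate. In controls LIF was highest at 70.0 ± 2.20 RPM per kb (SD, n = 3), followed by IL6ST (41.3 ± 1.3), OSMR (29.7 ± 0.839), STAT3 (16.5 ± 0.221) and IL11 (14.7 ± 0.988). SOCS3 (8.38 ± 0.544) and CLCF1 (7.43 ± 0.707) overlapped, and LIFR (4.60 ± 0.103), IL6 (0.934 ± 0.0694) and IL6R (0.542 ± 0.0830) were lowest. In knockdowns LIF stood at 58.1 ± 4.09, IL6ST at 50.4 ± 1.14 and OSMR at 44.1 ± 0.986 RPM per kb. SOCS3 (12.0 ± 0.779) then stood above IL11 (9.40 ± 1.24), the reverse of their order in controls, while LIFR overlapped CLCF1 and IL6 overlapped IL6R.

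Summed over the 4 ligands, the length-scaled level was 91.9, 94.5 and 92.7 RPM per kb in controls and 71.2, 80.4 and 69.4 in knockdowns. Summed over the 4 receptors it was 73.7, 77.9 and 76.8 in controls and 103, 99.6 and 99.2 in knockdowns. On this scale the ligand sum was above the receptor sum in every control library and below it in every knockdown library. That order depends on the approximate exon lengths. In RPM without division by length, the receptors in sum were above the ligands in every library of both groups. LIF made up 75.2% ± 1.35 of the ligand sum in controls and 78.9% ± 1.19 in knockdowns, IL11 15.8% ± 1.13 and 12.7% ± 0.864, and IL6 1.00% ± 0.0604 and 1.52% ± 0.241 (SD, n = 3). Among the receptors OSMR held 39.0% ± 0.131 in controls and 43.8% ± 0.311 in knockdowns. IL6ST held 54.2% ± 0.267 and 50.0% ± 0.480 (SD, n = 3). These shares describe the same values as above and were not tested.

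**Figure D3:**
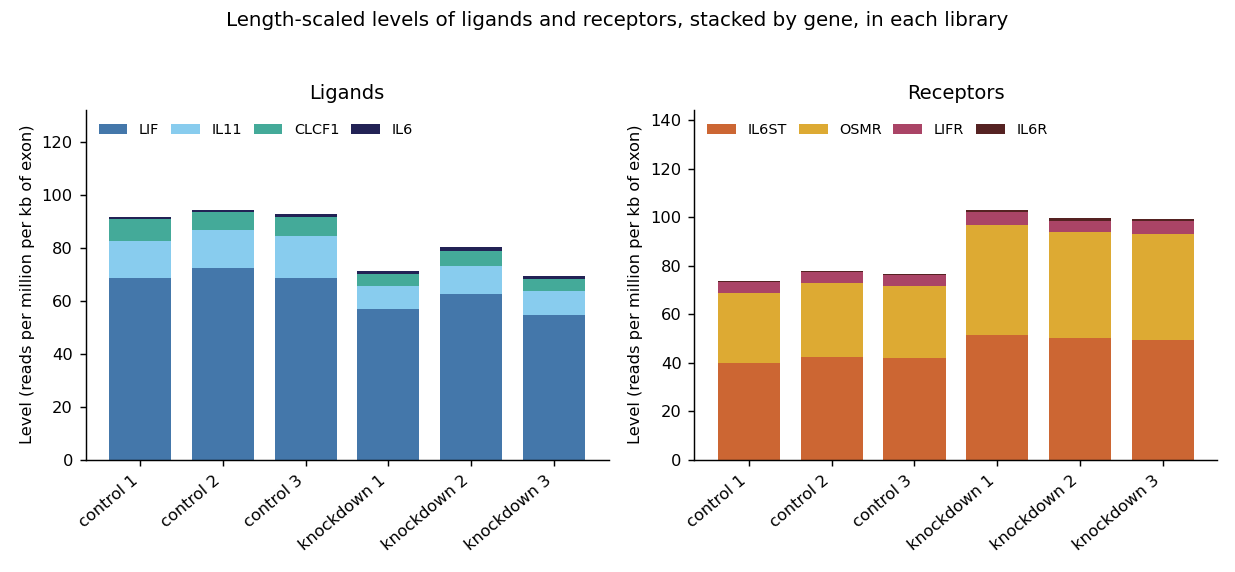
Length-scaled level (RPM per kb of exon, linear axis from 0) of the ligands (left) and receptors (right), stacked by gene, in each of the 6 libraries. Ligand bars are lower and receptor bars higher in knockdowns; LIF fills most of the ligand bar, and IL6ST and OSMR most of the receptor bar.

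Other genes of the pathway were read from 6 lists holding 83 genes, of which 66 were tested. Of these 31 changed, 18 upward and 13 downward. The share over all genes tested was 41.0%, and 51.6% among protein-coding genes with a mean of at least 50 normalized reads. No remaining ligand of the family passed the test: 4 of 8 were measured well enough, and their median log2 fold change was 0.19. CNTF stood at 0.587, 0.733 and 0.715 RPM in controls and 1.39, 0.768 and 1.14 in knockdowns (log2 fold change 0.66, SE 0.25; limma adjusted p = 0.056). CTF1, cardiotrophin 1, differed by -0.30 on the log2 scale (SE 0.12; limma adjusted p = 0.058). Both passed the threshold without knockdown replicate 2 (CNTF 0.89, limma adjusted p = 0.015; CTF1 -0.39, limma adjusted p = 0.028). Oncostatin M itself (OSM), the ligand of OSMR, was at 0.00662 RPM in controls and 0.0641 in knockdowns on average, below what a count of 0 allows.

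Among other receptors and receptor-processing genes, 5 of 7 tested changed, 3 upward and 2 downward, beside 41.0% of all genes tested. Their median log2 fold change was 0.11. ADAM17, the protease that releases the soluble form of IL6R from the cell surface, was at 28.8, 30.0 and 27.3 RPM in controls and 59.2, 57.6 and 58.3 in knockdowns. This was a 2.03-fold rise with no overlap (log2 fold change 1.02, SE 0.05; limma adjusted p = 2.9e-07). ADAM10, a related protease that can also cleave IL6R, rose 1.65-fold (log2 fold change 0.72, SE 0.04; limma adjusted p = 3.9e-07). IL31RA, which pairs with OSMR in the IL-31 receptor, was at 11.8, 13.7 and 11.2 RPM in controls and 19.3, 20.0 and 21.6 in knockdowns, a log2 fold change of 0.73 (SE 0.09; limma adjusted p = 7.2e-05). RHBDF2, which guides ADAM17 to the cell surface, fell by 0.55 on the log2 scale (SE 0.13; limma adjusted p = 0.0065). IL27RA fell by 0.35 (SE 0.10; limma adjusted p = 0.017). The IL27RA call was lost without control replicate 1 (-0.29, limma adjusted p = 0.058), control replicate 3 (-0.34, 0.064) or knockdown replicate 1 (-0.29, 0.058). IL11RA, the private receptor of IL-11, was at 3.74 ± 0.524 and 4.03 ± 0.492 RPM (SD, n = 3; log2 fold change 0.11, SE 0.14; limma adjusted p = 0.55).

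Of the 10 Janus kinases and other STATs, 3 rose and 1 fell, beside 41.0% of all genes tested that changed. Their median log2 fold change was 0.03. JAK1, the main kinase bound to IL6ST, went from 227 ± 6.63 to 262 ± 10.9 RPM (SD, n = 3; log2 fold change 0.21, SE 0.04; limma adjusted p = 0.0039). STAT4 (1.18, SE 0.35; limma adjusted p = 0.019) rose from 0.214 ± 0.0733 to 0.490 ± 0.131 RPM, close to the limit of detection. STAT5A fell by 0.52 (SE 0.16; limma adjusted p = 0.025). STAT4 lost its call without control replicate 1 (log2 fold change 1.08), control replicate 2 (1.05) or knockdown replicate 3 (0.98). STAT5A lost it without control replicate 1 (-0.44) or knockdown replicates 1 (-0.42) or 3 (-0.46), and with all libraries under an untrended variance model (limma adjusted p = 0.057). Among 14 tested inhibitors 1 rose and 3 fell, beside the same 41.0% of all genes tested. Their median log2 fold change was -0.04, the same as over all genes. SOCS4 had a log2 fold change of 0.22, and SOCS2 (-0.43), SOCS6 (-0.23) and the phosphatase PTPN1 (-0.17) fell, with limma adjusted p-values from 0.00079 to 0.0059. SOCS3 and SOCS4 thus moved upward, while SOCS2 and SOCS6 of the same protein family moved downward. The other SOCS genes listed did not pass the test.

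Among STAT3 target genes, 15 of 24 were tested, 5 rose and 4 fell, beside 41.0% of all genes tested that changed. Their median log2 fold change was 0.04. ICAM1, a leukocyte adhesion molecule, was at 39.8, 41.1 and 39.8 RPM in controls and 84.0, 105 and 86.6 in knockdowns, a log2 fold change of 1.18 (SE 0.08; limma adjusted p = 1.0e-06). IRF1 (0.35), BCL6 (0.29), A2M (0.62) and IL4R (0.16) also rose, with limma adjusted p-values from 0.0020 to 0.028. The genes that fell included TIMP1, a metalloproteinase inhibitor (log2 fold change -0.46, SE 0.05; limma adjusted p = 3.5e-05), and the survival genes BCL2L1 (-0.31) and MCL1 (-0.14). The A2M call was lost without control replicate 3 (0.46, limma adjusted p = 0.052), that of IL4R without control replicates 1 (0.12) or 3 (0.17) or knockdown replicates 2 (0.15) or 3 (0.16), and that of MCL1 without control replicate 3 or knockdown replicate 3 (-0.13 in both). Under an untrended variance model neither IL4R (limma adjusted p = 0.075) nor MCL1 (0.059) was called. The 9 genes not tested included the liver acute-phase genes SAA1, SAA2, CRP, FGB and FGG, which had 0 reads in all libraries.

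Among 16 factors of IL6 transcription and mRNA decay, 6 rose and 3 fell, beside 41.0% of all genes tested that changed. Their median log2 fold change was 0.12. RC3H1 and RC3H2, the roquin proteins that promote decay of inflammatory mRNAs, rose by 0.44 and 0.39 on the log2 scale (SE 0.06 and 0.05; limma adjusted p = 0.00017 and 0.00021). NFKB1 rose by 0.24 (SE 0.06; limma adjusted p = 0.0081), while RELA, its usual partner at NF-kB sites, differed by -0.05 (SE 0.04; limma adjusted p = 0.38). CEBPB, a C/EBP factor, had -0.09 (SE 0.14; limma adjusted p = 0.66), and -0.30 (limma adjusted p = 0.0099) without control replicate 2. The genes that fell were ZFP36L2 (-0.66, SE 0.08; limma adjusted p = 0.00011) and ZFP36 (-0.40, SE 0.12; limma adjusted p = 0.024), which bind AU-rich elements and destabilize mRNAs, and JUN, an AP-1 subunit (-0.44, SE 0.10; limma adjusted p = 0.0052, and 0.052 under an untrended variance model). ZFP36L1, of the same family as ZFP36 and ZFP36L2, moved the other way, from 176 ± 10.5 to 216 ± 5.28 RPM (SD, n = 3; log2 fold change 0.30, SE 0.05; limma adjusted p = 0.00067). ZFP36 lost its call without control replicates 1 (-0.26) or 3 (-0.43) or knockdown replicates 1 (-0.32) or 3 (-0.40), and under an untrended variance model (limma adjusted p = 0.091).

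**Figure D4:**
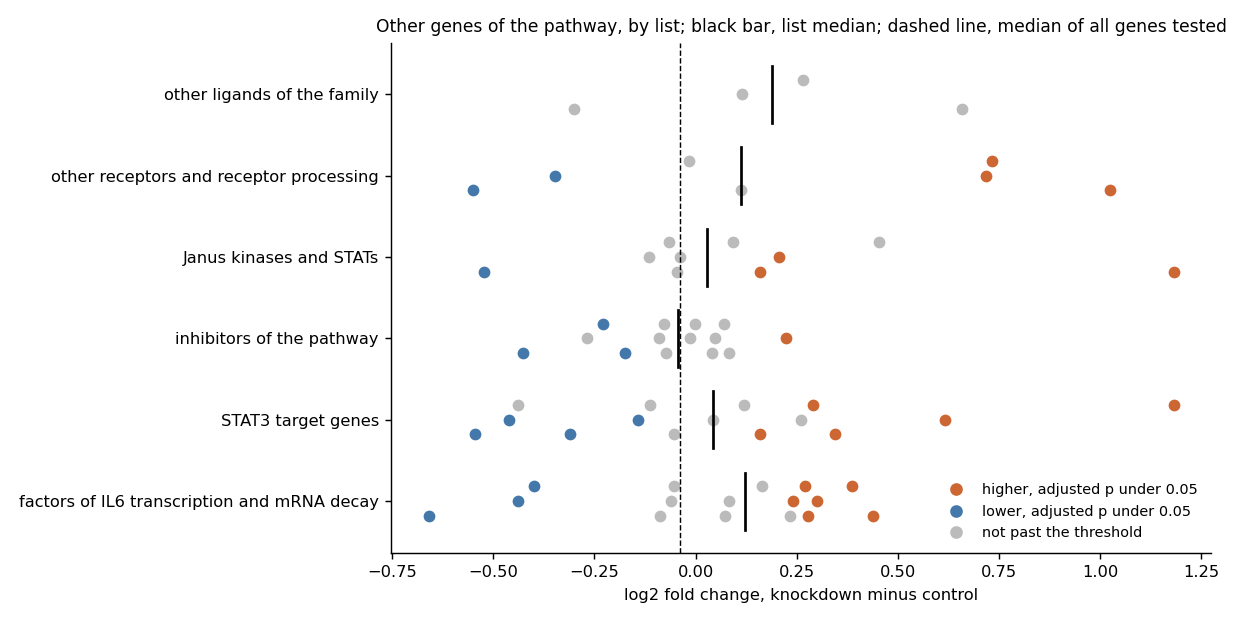
log2 fold change of the 66 tested genes of the 6 lists, 1 point a gene; black bars are list medians and the dashed line the median of all genes tested (-0.04). ADAM17, STAT4 and ICAM1 are the points right of 1, and each list has genes on both sides of 0.

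Genes with the profile most like each ligand were sought among 15114 genes with a mean of at least 50 normalized reads, by the root mean square difference of log2 values over the 6 libraries after each gene's mean was removed. For IL6 the closest were GPX3, a secreted glutathione peroxidase (0.0774), and the lincRNA CTC-428G20.3 (0.0820), and 7 genes lay within 0.1. For IL11 they were the metallothionein pseudogene MT1XP1 (0.0434) and the choline kinase CHKA (0.0521), with 70 genes within 0.1. For CLCF1 they were TMEM241 (0.0315) and the pseudogene LA16c-3G11.7 (0.0348), with 187 within 0.1. LIF had 1652 genes within 0.1.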

How the data were processed

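RNA was measured in 6 polyA libraries, 3 per siRNA group, as single 50-base reads. The submitters' processing notes name Bowtie2, featureCounts and the build hg19; versions, strand setting and annotation release are not given in the sources used here. The authors deposited 1 table whose values are log2 CPM. From the values, an offset of 0.5 reads and an effective library size were undone, which gave whole reads (within 0.001) for 100% of values; RPM here is those reads on the CPM scale of the effective size. Each column was assigned by its siRNA and replicate number, and an ending in the knockdown column names is not explained in the labels.

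The deposited log2 values were fitted with limma 3.58.1 (R 4.3.3; lmFit, eBayes with trend, group as sole term) over 19048 genes with a mean of at least 10 normalized reads, with Benjamini-Hochberg adjustment over all of them and calls at 0.05; fold changes carry the 0.5-read offset. Exact permutation of 3 against 3 libraries cannot go below p = 0.1. The fit was tested on simulated counts with far fewer changed genes than were called here and the same dispersion for every gene. These settings differ from the data, so that test does not measure the error rate of the calls reported here. In 18 other fits offset, filter, scaling, variance model, voom, depth, replicate block and library were varied. Reads of replicates differed by more than sampling noise (chi-square per degree of freedom 2.69 to 10.1). Members and lists were chosen with earlier results of these data known. Named genes were the members, the targeted lncRNA and the 2 closest profiles of IL6, IL11 and CLCF1, while those of LIF are not reported here. Also named were the 2 called genes of each list with the largest change and genes needed to describe a member. The other called genes of small counts were added after values were seen. Protein sequences were not analysed here, and results of some genes, which the counts include, are not reported here.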

Additional observations from a re-analysis of the deposited data

How the results depend on the processing

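Over the 18 other fits, 8 to 9 of the 10 members were called, and 9 kept direction and call in each fit: LIF, IL11, CLCF1, IL6R, IL6ST, OSMR, STAT3 and SOCS3 as called and IL6 as not called, with no member reversed. LIFR (0.18) was not called with untrended eBayes (0.18, limma adjusted p = 0.077) or without control replicate 3, knockdown replicate 1 or knockdown replicate 3, and its range over the 6 leave-one-out fits was 0.14 to 0.23. That range was 0.06 to 0.35 for IL6 and 0.73 to 0.93 for IL6R. At an adjusted p under 0.01, 5195 genes and 8 members were called, fewer by construction. Genes called over the fits ran from 5803 (without control replicate 3) to 7885, against 7805. Of the pathway genes, 24 to 33 were called, against 31. Of 32 other pathway genes named, 19 of the 27 called kept direction and call in each fit, and CEBPB, not called, was 0.043 without control replicate 1 and -0.30 (limma adjusted p = 0.0099) without control replicate 2; the cause was not tested.

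Replicate numbers are shared between the groups, and the labels do not say whether same-numbered libraries belong together. Deviations of same-numbered libraries from their group means correlated at -0.15, -0.19 and 0.063. With so few libraries these values cannot show whether the libraries were paired in the experiment. With the replicate block 6454 genes, 8 members and 27 pathway genes were called, and LIFR was 0.18 (limma adjusted p = 0.059). IL6 rests on 45 to 93 reads per library, and whether depth accounts for its missing call was not tested. With the libraries thinned to the smallest total of reads, in a single random draw, the other 9 members kept their calls.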

Other observations

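LIFR and OSMR are neighbours on chromosome 5, 237.5 kb apart in hg19 with 5 listed genes and 0 protein-coding genes between them. Both rose, by 0.18 and 0.57 on the log2 scale. The noncoding genes that overlap members on the opposite strand were mostly low. LIFR-AS1, which overlaps LIFR, gave 0.705, 0.533 and 0.517 RPM in controls and 0.269, 0.470 and 0.427 in knockdowns, on 6 to 26 reads per library (log2 fold change -0.57, SE 0.30; limma adjusted p = 0.15). The antisense gene AC073072.5, which overlaps IL6, gave 0.294, 0.233 and 0.298 RPM in controls and 0.134, 0.128 and 0.178 in knockdowns, on 3 to 15 reads, and was not tested because it did not pass the filter on low values. The log2 ratio of LIF to LIFR reads was 2.31, 2.38 and 2.36 in controls and 1.80, 2.11 and 1.78 in knockdowns, with no overlap; it was chosen after the values were seen and was not tested.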
